A study of Mus musculus with 2 samples.

Results

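Natural killer (NK) cells made up 671 of the 23585 cell barcodes that passed the filters in 2 single-cell RNA libraries of immune cells from mouse gliomas, 313 in the wildtype library and 358 in the Glut5 KO library. They were chosen by their transcripts. A barcode had to hold at least 300 genes and under 10% mitochondrial UMIs (unique molecular identifiers, each standing for 1 captured RNA molecule). It needed at least 2 UMIs over Ncr1, Klrb1c and Klre1, at most 1 UMI over the CD3 chains Cd3e, Cd3d and Cd3g, no Cd79a, and under 100 UMIs per 10000 of the phagocyte genes C1qa, C1qb, C1qc, Lyz2 and Apoe. The levels of these genes in the chosen cells are therefore a description.

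The mice carried CT-2A, a mouse glioma line, implanted in the brain, and the tumours were taken after 14 days. Cells bearing the leukocyte antigen CD45 were pulled from the digested tissue with magnetic beads, and 16000 cells were loaded per 10x Genomics run for 5′ libraries. The wildtype library came from host mice labelled wildtype, and the Glut5 KO library from hosts labelled as lacking Glut5, the fructose transporter encoded by Slc2a5. The design text calls the second group a knockdown. The deleted exons, the strain, the number, sex and age of the animals, and the cells in which the gene was removed were not given in the sources used here. With 1 library per genotype no test between genotypes was possible. Intervals in brackets are 95% exact intervals that cover counting error only, and a difference between genotypes cannot be told apart from a difference between the libraries or their animals.

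NK cells are innate lymphocytes that kill stressed, infected or transformed cells without an antigen receptor rearranged in each cell. Killing is set by activating receptors, such as NKp46 (Ncr1) and NKG2D (Klrk1), against inhibitory receptors that read MHC class I on the target. NKG2A and some, but not all, Ly49 receptors are inhibitory. An engaged NK cell releases perforin and granzymes from granules and secretes interferon-gamma and chemokines such as XCL1 and CCL5, which act on dendritic cells and T cells. Interleukin-15, Eomes and T-bet sustain NK cells, while KLF2 and S1PR1 belong to the circulating state of lymphocytes.

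The 2 libraries held 116105873 and 96851696 UMIs (wildtype first here and below), with medians of 8662 and 6498 UMIs per barcode. Slc2a5 was counted at 384 UMIs in the wildtype library and at 1 UMI in the Glut5 KO library over all barcodes. In the NK cells no Slc2a5 UMI was counted in either library, which allows a level of up to 1.80 and 1.42 CPM (counts per 1000000 UMIs). Both libraries contained cells of both sexes although each title names a single mouse. Of the NK cells with sex-specific transcripts of 1 sex only, 39 were female and 104 male in the wildtype library, against 110 and 68 in the Glut5 KO library. The female share of such barcodes was 27.3% and 61.8% among NK cells and 44.4% and 56.8% over all barcodes, so the sex mix of the NK cells differed between the libraries in the same direction as the genotype. A further 162 and 173 NK cells held no sex-specific transcript, and 8 and 7 held those of both sexes. The splits by sex below leave these NK cells out. The libraries shared 188 barcode sequences, 3 and 2 of them NK cells.

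The label was checked against marker lists. Gzma, the granule protease granzyme A, was not part of the choice and stood at 4485 and 3629 CPM in NK cells against 74.4 and 65.6 CPM in all other barcodes. Of 9 genes (Gzma, Gzmb, Gzmc, Prf1, Nkg7, Ccl5, Klrd1, Klrk1 and Eomes), 1 and 2 NK cells held no UMI of any. Ccl5 alone had a UMI in 92.6% and 80.2% of CD8 T cells and in 49.2% and 60.1% of phagocytes. That count was not made in other cells, so it does not check the label. The 13 further NK markers summed to 5397 and 5526 CPM, against 1472 and 1010 CPM in CD8 T cells of the same libraries. The 9 T cell markers other than the CD3 chains summed to 279 and 272 CPM in NK cells, against 888 and 1187 CPM in CD8 T cells and 77.5 and 152 CPM in other barcodes. Not all of them were lower than in CD8 T cells: Trbc1, a constant segment of the T cell receptor beta chain, stood at 74.4 and 66.7 CPM against 33.5 and 24.0 CPM, and Lef1 at 54.6 and 48.2 CPM against 44.0 and 78.1 CPM. The gamma-delta T cell list went against the label. It summed to 115 and 122 CPM in NK cells, against 28.3 and 69.2 CPM in CD8 T cells and 6.27 and 17.7 CPM in other barcodes. Trdv4 (69.6 and 68.6 CPM) and Trdc (25.8 and 30.3 CPM), segments of the delta chain, made up most of it, and the part of gamma-delta T cells in the chosen barcodes was not tested. Of the ILC3 list, Il22, Il23r and Il17a were at 0 and Ccr6 had 13 and 10 UMIs, or 7.80 and 4.73 CPM against 3.3997 and 7.67 CPM in other barcodes. Foxp3 of regulatory T cells and the B cell genes Ms4a1 and Pax5 were at 0. The 9 ILC1 markers summed to 343 and 485 CPM, below the 862 and 967 CPM of CD8 T cells. Not every member was lower. Itga1 stood at 51.0 and 70.0 CPM, against 19.9 and 61.2 CPM in CD8 T cells and 5.02 and 7.41 CPM in other barcodes. Tnfsf10 stood at 18.6 and 29.3 CPM, against 10.5 and 35.5 CPM in CD8 T cells and 6.30 and 11.2 CPM in other barcodes. Zfp683, the ILC1 factor Hobit, had 4 and 1 UMIs. A clean split of NK cells from ILC1 was not attempted.

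Other cells' RNA was present in some of the chosen barcodes. The 11 dendritic cell markers, which include the MHC class II genes, summed to 15993 and 14361 CPM. MHC class II genes and Cd74 reached 100 UMIs per 10000 in 43 of 313 and 57 of 358 NK barcodes, which was 13.7% and 15.9% of the cells but 30.6% and 27.0% of the NK UMIs. These barcodes had medians of 11562 and 8778 UMIs, against 3414 and 3909.5 UMIs over all NK cells. A further 2 wildtype barcodes and 0 Glut5 KO barcodes carried mast cell proteases. Every comparison was therefore repeated without these droplets and without the top 8% of doublet scores, which left 266 and 296 cells, called the set without mixed droplets below. At the edge of the choice, 40 and 57 NK cells held exactly 2 UMIs of the 3 NK receptor genes, and 108 and 151 barcodes that met the other limits held 1. Gzma stood at 3144 and 1560 CPM in the former and at 503 and 239 CPM in the latter.

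The upstream bases of 5 genes are shown because the results turn on them: Ncr1 marks the cells, Gzma was the common granzyme, Gzmc was held by a minority of the cells, which had less Gzma than the rest, and its neighbours Gzmd and Gzmf were seen in a few cells. Each run is the 250 bases before the RefSeq transcription start (GRCm38.p6), 5′ to 3′ on the gene's strand. Capitals mark a match to the RUNX core TGTGGT or to the T-box core AGGTGT on either strand; the 2 motifs do not overlap in these runs. The positions are chr7:4337465-4337714 (plus strand) for Ncr1, chr13:113100982-113101231 (minus) for Gzma, chr14:56234658-56234907 (minus) for Gzmc, chr14:56132594-56132843 (minus) for Gzmd and chr14:56211408-56211657 (minus) for Gzmf.
Ncr1: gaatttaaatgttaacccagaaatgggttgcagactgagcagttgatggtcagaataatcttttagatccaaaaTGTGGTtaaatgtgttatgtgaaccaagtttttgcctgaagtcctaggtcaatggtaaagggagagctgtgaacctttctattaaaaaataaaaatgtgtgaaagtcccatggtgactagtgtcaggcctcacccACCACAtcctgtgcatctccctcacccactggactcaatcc
Gzma: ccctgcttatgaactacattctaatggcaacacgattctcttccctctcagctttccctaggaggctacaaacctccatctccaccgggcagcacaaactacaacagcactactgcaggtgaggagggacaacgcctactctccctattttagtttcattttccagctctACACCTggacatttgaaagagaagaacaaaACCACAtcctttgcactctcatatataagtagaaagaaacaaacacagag
Gzmc: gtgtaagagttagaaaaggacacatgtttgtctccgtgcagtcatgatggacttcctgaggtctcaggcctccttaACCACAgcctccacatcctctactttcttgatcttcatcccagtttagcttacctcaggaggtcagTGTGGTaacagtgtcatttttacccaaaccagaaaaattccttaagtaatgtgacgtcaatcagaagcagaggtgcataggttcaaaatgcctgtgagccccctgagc
Gzmd: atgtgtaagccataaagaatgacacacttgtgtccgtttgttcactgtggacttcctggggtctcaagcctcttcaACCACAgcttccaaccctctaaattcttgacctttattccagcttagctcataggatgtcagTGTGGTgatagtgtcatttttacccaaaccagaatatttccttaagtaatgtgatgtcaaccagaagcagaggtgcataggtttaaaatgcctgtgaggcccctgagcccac
Gzmf: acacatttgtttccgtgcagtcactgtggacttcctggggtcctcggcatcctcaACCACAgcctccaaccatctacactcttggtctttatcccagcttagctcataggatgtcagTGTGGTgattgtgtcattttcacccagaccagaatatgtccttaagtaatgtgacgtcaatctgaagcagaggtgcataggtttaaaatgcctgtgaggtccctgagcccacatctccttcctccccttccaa
Over the same window of all 32851 starts in the table, 14% held the RUNX core, 11.8% the T-box core and 2.13% both. Gzma held 1 match of each, and the other 4 runs held 2 RUNX matches and no T-box match. The window of Gzmc was 81.3% identical to that of Gzmd and 71.5% to that of Gzmf, while Gzma shared 45.3% to 48.3% of aligned bases with those 3. A match is a run of letters and not a shown binding site. RUNX3 and the T-box factors T-bet and Eomes are known regulators of NK cells, and their transcripts differed by less than 1.5-fold between the libraries: Runx3 at 259 and 249 CPM, Tbx21 at 249 and 255 CPM, and Eomes at 201 and 180 CPM.

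NK cells were 2.73% [2.44 to 3.04] of barcodes in the wildtype library and 2.96% [2.66 to 3.27] in the Glut5 KO library, a ratio of 1.08 [0.928 to 1.26]. In the set without mixed droplets the shares were 2.32% and 2.44%, with a ratio of 1.05 [0.890 to 1.25]. The interval of the ratio spans 1 in both sets, but not among barcodes with at least 2000 UMIs, where the shares were 2.62% and 3.21%, a ratio of 1.22 [1.04 to 1.45]. Split by sex, the picture was uneven: NK cells were 1.35% of female barcodes in the wildtype library and 3.17% in the Glut5 KO library, a ratio of 2.35 [1.62 to 3.48]. In male barcodes the shares were 2.87% and 2.57%, a ratio of 0.895 [0.649 to 1.23]. Among NK and CD8 T cells together, 76.9% and 73.2% were NK cells.

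**Figure D1:**
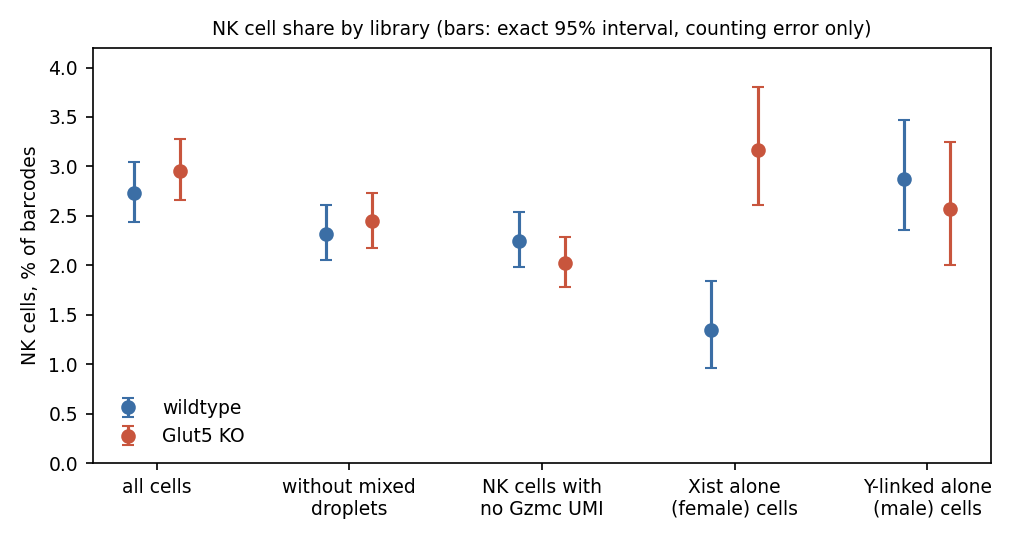
NK cells as a percentage of barcodes in each library (vertical axis), for all NK cells, for those without mixed droplets, for those with no Gzmc UMI and for female and male barcodes alone; bars on the points are 95% exact binomial intervals. The all-cell shares lie at 2.73% and 2.96% with overlapping intervals, while the female shares lie at 1.35% and 3.17%.

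NK cells were next set against the 94 and 131 CD8 T cells of the same libraries, the other cytotoxic lymphocytes of the tumour. The CD8 T cells were deeper, with medians of 8444.5 and 6456 UMIs, and 31 and 38 of them also held much MHC class II RNA. Levels are CPM of the UMIs summed over the cells, and ratios are log2 values with 0.5 added to each count. Of 6007 genes with at least 50 UMIs in each library, 146 (2.43%) were at least 2-fold higher in NK cells in both libraries and 118 (1.96%) at least 2-fold lower. CD8 T cells could hold at most 1 UMI over Ncr1, Klrb1c and Klre1, so T cells with more of these NK receptors were left out. Within the Cd79a and phagocyte limits, 113 and 144 barcodes had at least 2 such UMIs and at least 3 CD3 UMIs. They fell in neither group. Since both cell types were chosen by transcripts, these values are a description.

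The Ly49 receptor genes set the NK cells apart. The 6 Ly49 genes Klra1, Klra3, Klra4, Klra7, Klra8 and Klra9, which encode lectin-like receptors, summed to 1096 and 1142 CPM in NK cells. In CD8 T cells they summed to 11.5 and 16.9 CPM, so NK cells were 95.1-fold [53.0 to 191] and 67.8-fold [43.3 to 113] higher. Klrb1a, a lectin-like receptor of the NKR-P1 family, stood at 98.4 and 90.8 CPM and had no UMI in CD8 T cells, which makes it at least 31.3-fold and 34.1-fold higher against a floor of 3 counts per library. Its relative Klrb1f was 88.2-fold [15.6 to 3507] and 46.9-fold [12.8 to 390] higher, on 1 and 2 UMIs in CD8 T cells. The Klra genes are related to each other, as are the Klrb1 genes, and their sequence identity was not measured here. The split of reads among members is therefore uncertain, and the sum is firmer than any single member.

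Of the 14 activating receptors, 9 were at least 2-fold higher in NK cells in both libraries and 0 were lower, and 2 of the 9, Ncr1 and Klrb1c, had chosen the cells. NKG2D, from Klrk1, stood at 459 and 489 CPM against 180 and 159 CPM in CD8 T cells. The SLAM-family receptor 2B4, from Cd244a, was 2.43 and 2.34 higher in log2. Of the 17 inhibitory and checkpoint receptors, 6 were higher and 4 lower. The 6 included Klrd1, the CD94 partner of NKG2 receptors, at 688 and 648 CPM against 296 and 310 CPM. The 4 lower ones were the checkpoint receptors that mark stimulated T cells. Pdcd1, which encodes PD-1, stood at 14.4 and 16.6 CPM in NK cells and at 382 and 497 CPM in CD8 T cells, a log2 ratio of -4.70 and -4.89. The same direction held for Ctla4 (-1.87 and -2.26), Lag3 (-1.83 and -1.99) and Havcr2, which encodes TIM-3 (-1.42 and -1.59).

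Single cells showed the receptors as a patchwork. After each cell was thinned to 1000 UMIs, which left 309 and 346 NK cells, 61.2% and 59.0% held a UMI of any of the 6 Ly49 genes, against 1.06% and 2.34% of CD8 T cells and 0.739% and 1.21% of phagocytes. Without thinning, 79.6% and 74.6% of NK cells did. None of the 6 was seen in 38.8% and 41.0% of thinned NK cells, 1 gene in 35.9% and 31.8%, 2 genes in 17.5% and 18.5%, 3 genes in 6.796% and 6.36%, and 4 or more in 0.971% and 2.31%. At this depth a missing UMI does not show that the gene is off. The most widely seen member was Klra4, in 26.9% and 26.6% of cells. Pdcd1 had a UMI in 0.971% and 2.02% of thinned NK cells and in 34.0% and 35.2% of CD8 T cells.

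Granule genes were higher in NK cells in 8 of 20 cases and lower in 1. Gzma stood at 4485 and 3629 CPM in NK cells and at 189 and 165 CPM in CD8 T cells, which is 23.7-fold [20.4 to 27.6] and 21.99-fold [19.0 to 25.6]. Gzmc, granzyme C, stood at 2855 and 3637 CPM against 101 and 28.4 CPM, which is 28.4-fold [23.2 to 35.1] and 128-fold [90.7 to 187]. Perforin, from Prf1, stood at 346 and 427 CPM against 74.3 and 89.6 CPM, or 4.66-fold and 4.77-fold. Gzmb, which encodes granzyme B, was closer, with log2 ratios of 0.89 and 0.54. Gzmk, granzyme K, was lower, at 13.2 and 10.4 CPM against 163 and 145 CPM. NK cells thus led in granzymes A and C and CD8 T cells in granzyme K. The protease inhibitor Serpinb9, which guards killer cells against their own granzyme B, stood at 503 and 619 CPM against 153 and 102 CPM.

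Among secreted signals, Xcl1, the attractant of cross-presenting dendritic cells, stood at 857 and 1345 CPM in NK cells and at 173 and 125 CPM in CD8 T cells. Ccl5 did not separate the cell types, with log2 ratios of -0.09 and 0.01. The factor Eomes stood at 201 and 180 CPM against 19.9 and 18.6 CPM, and Tbx21 was 1.35 and 1.22 higher in log2. Receptor adaptors split by lineage: Tyrobp, the DAP12 adaptor of activating NK receptors, stood at 2673 and 2706 CPM against 1022 and 522 CPM, and Lat, the scaffold of T cell receptor signalling, at 40.8 and 44.9 CPM against 409 and 445 CPM. Tyrobp is also a phagocyte gene, and the microglia and macrophage markers summed to 1758 and 1474 CPM in NK cells and to 3230 and 2006 CPM in CD8 T cells. The part of those cells' RNA in the Tyrobp level was not tested.

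Other genes with a large difference in both libraries were Car2, a carbonic anhydrase (4.27 and 4.98 in log2), Cited4, a transcriptional co-regulator (4.23 and 4.47), and Emid1 (4.42 and 4.15). Tnfrsf4, which encodes the costimulatory receptor OX40, was lower (-3.81 and -5.40), as were Camk4, a calcium-dependent kinase (-2.15 and -2.87), Grap2, an adaptor of T cell receptor signalling (-1.91 and -2.64), Klk8 (-3.01 and -2.49) and Gramd3 (-1.81 and -2.14). NK cells also held fewer transcripts of division: 13 of 28 cell cycle genes were at least 2-fold lower than in CD8 T cells and 0 were higher, with a median log2 ratio of -0.99 and -1.45 against -0.01 and -0.05 over all genes. Mki67, the proliferation marker, stood at 38.4 and 46.3 CPM against 134 and 273 CPM. Glycolysis (14 genes) and oxidative phosphorylation (56 genes) had no member past 2-fold in both libraries in either direction.

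**Figure D2:**
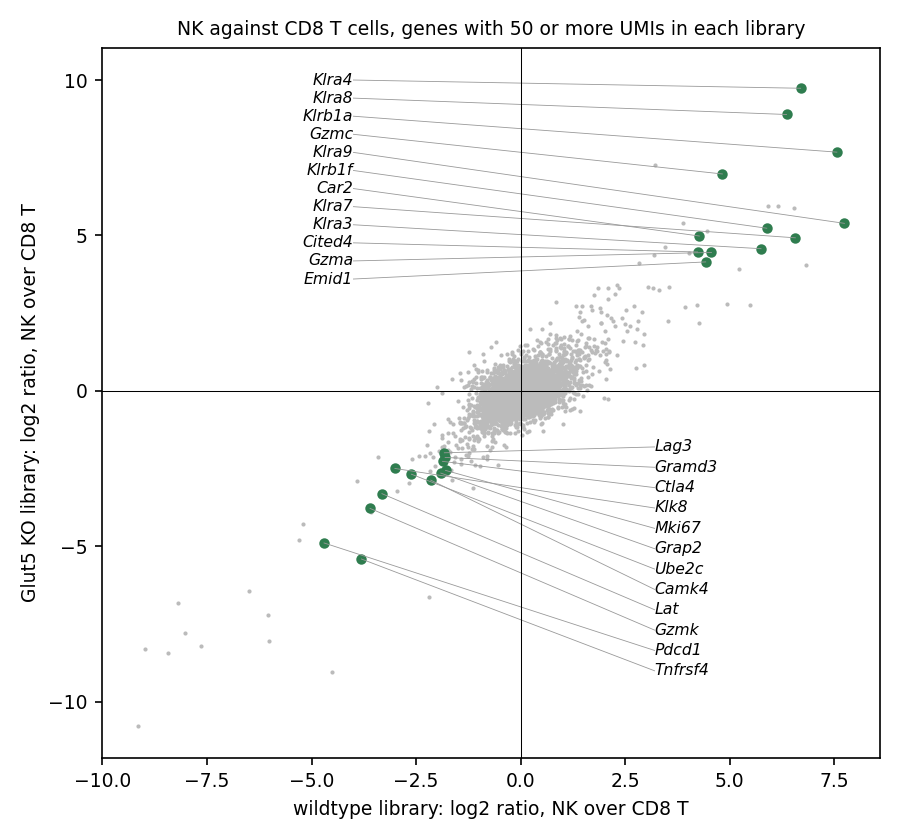
Log2 ratio of NK over CD8 T cells in the wildtype library (horizontal) and in the Glut5 KO library (vertical), 1 point per gene with at least 50 UMIs in each library. Green points are the genes with the largest difference by the smaller of the 2 libraries. The genes that chose the cells are not drawn. Ly49 genes lie at the upper right and Pdcd1 at the lower left.

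Between genotypes, most receptor and granule genes of NK cells differed by less than 1.5-fold, while Klf2, S1pr1, Ndufs5 and Sult2b1 stood lower and Dhrs3, Egr1 and Ly6a higher in the Glut5 KO library. Of 7214 genes with at least 50 UMIs over both libraries, 338 (4.69%) were at least 1.5-fold higher in the Glut5 KO library and 243 (3.37%) at least 1.5-fold lower, with a median log2 ratio of 0.03 over all genes. In the set without mixed droplets the counts were 305 (5.07%) and 200 (3.32%) of 6018 genes. Over all other barcodes, where counts are far larger, 8.33% of genes were higher and 5.5% lower. Ratios below are log2 values, Glut5 KO relative to wildtype, and the counts of lists below are to be read against 4.69% and 3.37%.

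Receptors differed little. Of 14 activating receptors 1 was higher and 0 lower, with a median of 0.04. Ncr1 stood at 311 and 352 CPM, a ratio of 0.18 [0.02 to 0.35], and Klrk1 at 459 and 489 CPM, a ratio of 0.09 [-0.05 to 0.23]. The 1 higher member was Crtam, a receptor for the nectin-like adhesion molecule Cadm1, on 45 and 96 UMIs (0.74 [0.23 to 1.30]), and it was lower in male cells alone (-0.81). Of 18 inhibitory and checkpoint receptors 3 were higher and 0 lower. These were Lag3 at 27.0 and 51.1 CPM (0.91 [0.41 to 1.46]), Cd300a at 26.4 and 43.0 CPM (0.70) and Ctla4 at 47.4 and 72.8 CPM (0.62). Cd300a was at -0.45 without the top doublet scores. In the set without mixed droplets Lag3 was at 0.56 and Ctla4 at 0.53, both under the 1.5-fold limit, and in male cells Ctla4 was lower (-0.44). None of 18 adaptors and signalling genes passed 1.5-fold, and Tyrobp stood at 2673 and 2706 CPM.

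Granzymes went in different directions. Gzma was lower in the Glut5 KO library, at 4485 and 3629 CPM, a ratio of -0.31 [-0.35 to -0.26], and was lower in female (-0.38) and in male cells (-0.97). Gzmb was higher, at 1872 and 2520 CPM (0.43 [0.36 to 0.49]), and Prf1 stood at 346 and 427 CPM (0.30 [0.15 to 0.46]). Gzmc stood at 2855 and 3637 CPM (0.35 [0.30 to 0.40]), with 0.92 in female and -0.24 in male cells. Over all NK cells each of these 4 differences was under 1.5-fold. Of 21 granule and death effectors 1 was higher, Tnfsf10 (the ligand TRAIL, 0.65 on 31 and 62 UMIs and -0.06 in male cells), and 3 were lower, Gzmd, Gzme and Gzmf. Gzmf stood at 232 and 82.8 CPM, but 96.4% and 93.7% of its UMIs lay in 2 cells of each library. The genes Gzmc to Gzmg are closely related neighbours, so reads may be split among them.

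The share of cells with a Gzma UMI showed the same direction. After thinning to 1000 UMIs it was 76.4% [71.2 to 81.0] and 59.5% [54.2 to 64.8] of NK cells, against 1.14% and 1.33% of phagocytes and 9.57% and 6.25% of CD8 T cells. Unthinned it was 84.3% and 70.9%. It was lower in the Glut5 KO library in female NK cells (84.6% and 55.6%) and in male NK cells (64.1% and 36.8%). Gzmc went the other way, with a UMI in 12.3% [8.85 to 16.5] and 22.5% [18.2 to 27.3] of thinned NK cells and in 0.185% and 0.810% of phagocytes. The share with Gzmb was 59.9% and 60.7%. Prf1 had a UMI in 36.9% and 29.5% of thinned NK cells, lower in the Glut5 KO library although its summed level was higher. Without mixed droplets the Prf1 share was 40.5% and 31.7%. Over all thinned NK cells split by sex, it was 20.5% and 36.1% in female and 41.7% and 22.1% in male ones.

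**Figure D3:**
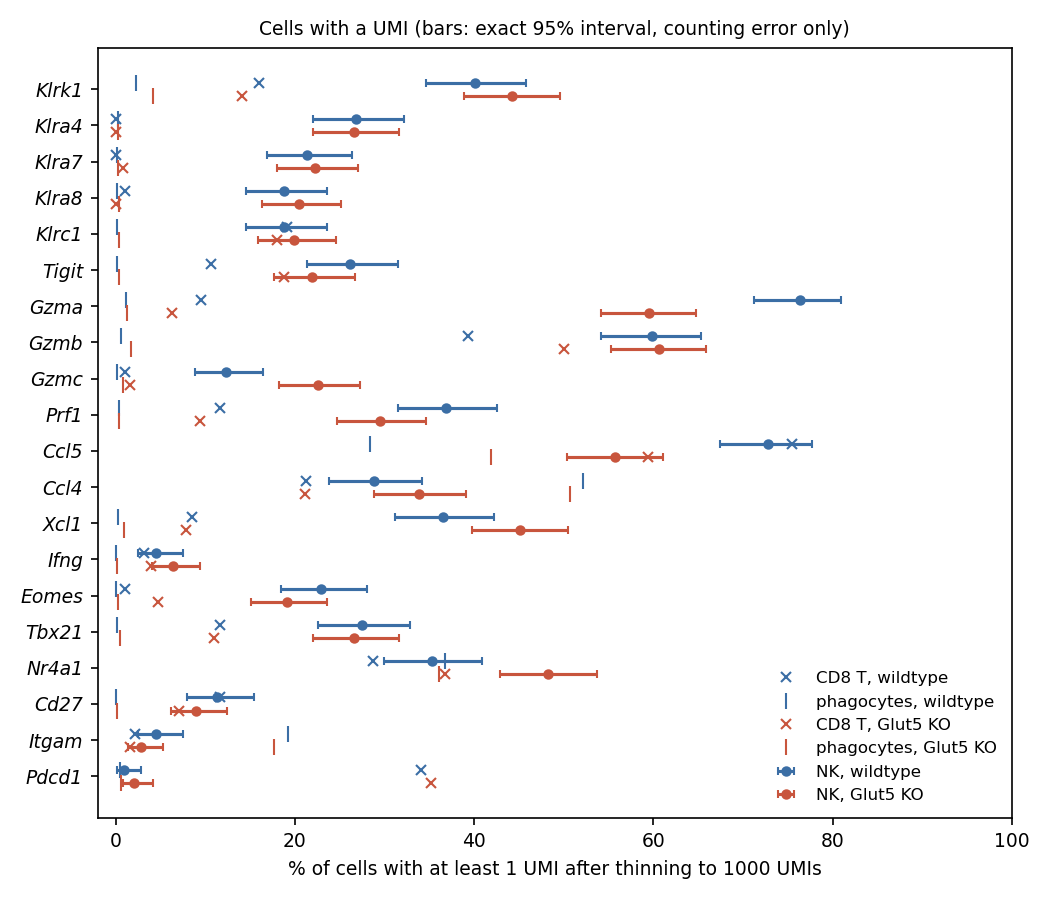
Share of NK cells, CD8 T cells and phagocytes with at least 1 UMI of a gene after each cell was thinned to 1000 UMIs, in both libraries; points are NK cells with 95% exact binomial intervals, crosses are CD8 T cells and upright ticks are phagocytes. Gzma and Ccl5 are seen in fewer NK cells of the Glut5 KO library and Gzmc in more, while Ccl5 also has a UMI in 28.4% and 41.9% of phagocytes.

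Chemokine genes also split. Ccl5, an attractant of T cells and monocytes, stood at 5271 and 3394 CPM in NK cells, a ratio of -0.64 [-0.68 to -0.59]. It was lower in the set without mixed droplets (-0.59), in female cells (-1.26) and in male cells (-0.61), while over all other barcodes it was higher (0.37). A Ccl5 UMI was held by 72.8% and 55.8% of thinned NK cells, and also by 28.4% and 41.9% of thinned phagocytes. Xcl1 stood at 857 and 1345 CPM (0.65 [0.56 to 0.74]), with 0.81 in female and 0.12 in male cells. Ccl4, an inflammatory chemokine, stood at 704 and 949 CPM (0.43), and Ifng, which encodes interferon-gamma, had 59 and 109 UMIs (0.54 [0.07 to 1.03]). Csf2, the growth factor GM-CSF, had 2 and 41 UMIs, and 1 and 41 UMIs in the set without mixed droplets. Its log2 ratio was 3.71 [2.07 to 7.11], although its UMIs over both libraries fell under the minimum set for forming a ratio. The number of cells that held the Csf2 UMIs is not given here, so a difference across the NK cells cannot be read from them. Ccl1 was lower on 139 and 21 UMIs, of which 98.6% and 100% lay in 2 cells of each library.

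The factor Klf2, which drives the circulating state of lymphocytes, was lower in NK cells of the Glut5 KO library. It stood at 501 and 225 CPM, a ratio of -1.15 [-1.32 to -0.99], and had a UMI in 64.2% and 41.6% of NK cells. The ratio was -1.197 in the set without mixed droplets, -1.54 in female cells and -1.59 in male cells. Klf2 also stood lower in other cells, at 357 and 169 CPM in CD8 T cells and at 340 and 272 CPM over all other barcodes. S1pr1, the egress receptor that KLF2 is known to induce, had 51 and 11 UMIs in NK cells (-2.51 [-3.64 to -1.60]). Of 19 trafficking genes 1 was higher and 3 were lower, and Cxcr3, a receptor for interferon-induced chemokines, was among the lower ones at 48.0 and 30.3 CPM (-0.66). The third was Ccr7, the lymph node homing receptor, which migratory dendritic cells also express; in the set without mixed droplets it had 39 and 25 UMIs.

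Of 22 NK transcription factors, Klf2 included, 1 was higher and 2 were lower. The higher one was Rora, a nuclear receptor of innate lymphocytes, at 29.99 and 55.3 CPM (0.88 [0.39 to 1.39]), with 1.69 in male and 0.09 in female cells. Prdm1, which encodes BLIMP-1, was the other lower one, on 49 and 39 UMIs (-0.67 [-1.32 to -0.04]). Tbx21 (0.03), Id2 (0.10) and Nfil3 (0.00), which specify NK cells, differed by little. Of 15 genes of ILC1 and tissue residence 3 were higher and 0 lower, with a median of 0.17. They were Nt5e, the ectoenzyme CD73, at 27.6 and 44.0 CPM (0.67), Cxcr6 on 31 and 62 UMIs (0.65 [0.01 to 1.33]) and Tnfsf10. In the set without mixed droplets Nt5e was at 0.54, Cxcr6 at 0.50 and Tnfsf10 at 0.39, all under the limit. Thy1, a marker of less mature and of activated NK cells, stood at 189 and 339 CPM (0.84 [0.65 to 1.04]), with 1.85 in female and 0.36 in male cells.

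The genes with the highest ratios included some that lie near the targeted locus. Slc2a5 is at chr4:150119283-150144169 (GRCm38). Dhrs3, a retinaldehyde reductase, at chr4:144892827-144928209, stood at 48.6 and 121 CPM in NK cells (1.31 [0.95 to 1.69]) and at 63.9 and 81.0 CPM over all other barcodes. Cep85, a centrosomal protein gene at chr4:134129858-134187112, stood at 57.0 and 10.9 CPM (-2.37 [-3.11 to -1.72]), and Ndufs5, which encodes a part of mitochondrial complex I, at chr4:123712710-123718202, at 151 and 50.6 CPM (-1.57 [-1.91 to -1.24]). Both were also lower over all other barcodes, at 70.5 and 7.64 CPM for Cep85 and 158 and 74.6 CPM for Ndufs5. Kif1b, a kinesin gene within 30 Mb of Slc2a5, stood at 35.4 and 68.1 CPM (0.94). The part of this neighbourhood in the ratios was not tested.

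Away from that neighbourhood, Egr1, an immediate-early factor, stood at 58.8 and 135 CPM (1.20 [0.87 to 1.55]), while other barcodes held 230 and 226 CPM. It was higher in the set without mixed droplets (1.42) and in female (2.01) and male cells (1.02). Of the Egr1 UMIs, 15.3% and 18.2% lay in 2 cells of each library, and 17.9% and 24.9% in the set without mixed droplets. Ly6a, which encodes the interferon-inducible surface protein Sca-1, stood at 546 and 1013 CPM (0.89), and at 220 and 606 CPM in the set without mixed droplets (1.46 [1.26 to 1.68]). Over all other barcodes pooled Ly6a was higher too, at 796 and 1859 CPM, and in CD8 T cells it stood at 1164 and 1755 CPM. The part of the cell mix in the pooled difference was not tested. Igflr1, a receptor of the tumour necrosis factor receptor family, stood at 37.2 and 78.0 CPM (1.06), and Hilpda, a hypoxia-induced regulator of lipid droplets, at 98.4 and 180 CPM (0.87). Myo1e, a class I myosin (0.97), and Golga4, a Golgi tether (0.89), were also near the upper end, as was Ube2c. Ube2c, a mitotic ubiquitin-conjugating enzyme, was at 0.87 over all NK cells and at -0.24 in the set without mixed droplets, and 69.4% and 55.3% of its UMIs lay in 2 cells.

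At the lower end, Sult2b1, a sterol sulfotransferase, stood at 155 and 74.3 CPM in NK cells (-1.06 [-1.35 to -0.77]) and at 4.31 and 4.16 CPM over all other barcodes. It was lower in the set without mixed droplets (-1.16) and in female (-1.07) and male cells (-1.88). Several other genes with low ratios were carried by few droplets. The mast cell chymase gene Cma1 (-3.38) had 87.5% of its wildtype UMIs in 2 cells. Ccl22, a dendritic cell chemokine (-3.55), had 97.2% of its wildtype UMIs in barcodes rich in MHC class II. The same held for Plet1 (-1.64; 100% and 94.7%), Naaa (-1.43; 89.4% and 81.8%) and Arl5c (-0.97; 72.3% in both libraries). Mthfsl, the remaining gene, was at -0.90 and at -0.44 in the set without mixed droplets. In the set without mixed droplets the extremes gained Ubxn11 (1.44), Nfkbid, an atypical inhibitor of NF-kB (1.05), Jaml, a junctional adhesion molecule (1.03), Dlat (0.98), Helz2 (0.95) and Gar1 (0.95). They also gained Il1b (-2.06), Ifitm2 (-1.30), Pink1 (-1.10), Gzmd (-1.02), Prkx (-0.99), Agtrap (-0.94) and Adora2a, an adenosine receptor gene (-0.94). Ubxn11, Pink1 and Agtrap lie within 30 Mb of Slc2a5.

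**Figure D4:**
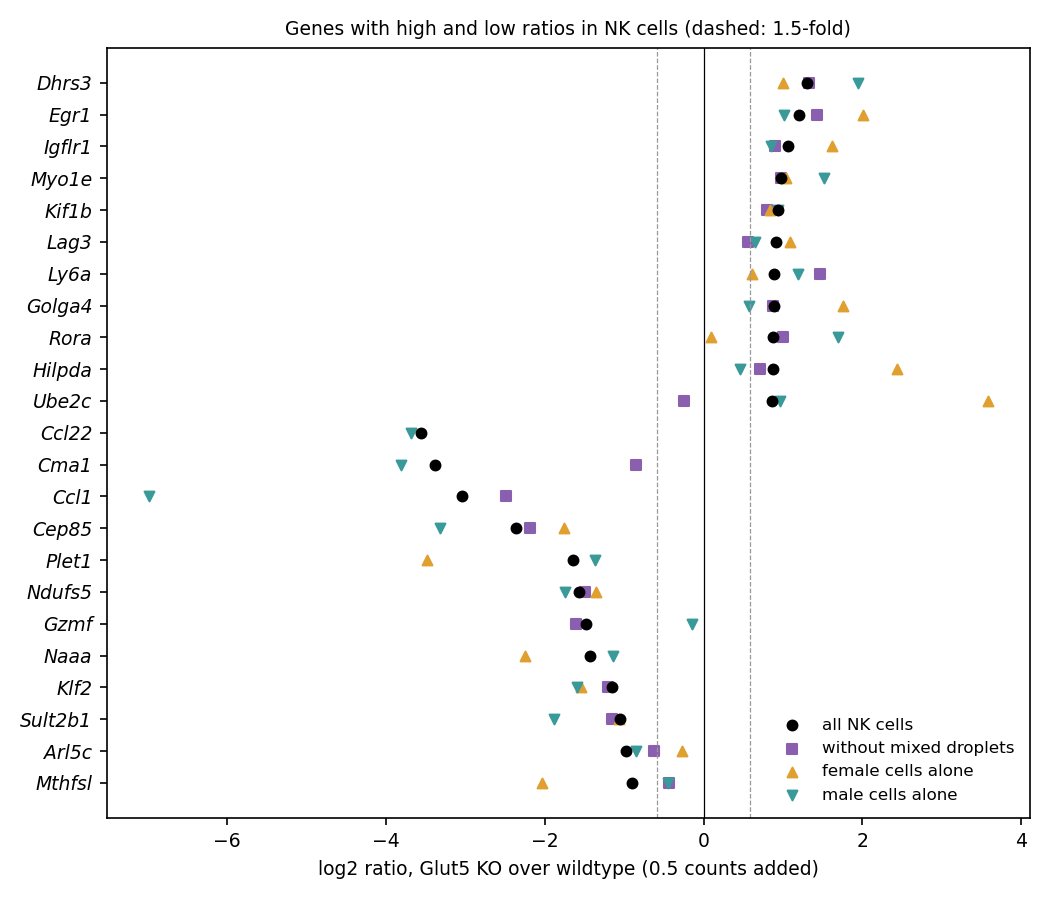
Log2 ratio of Glut5 KO over wildtype in NK cells (horizontal) for genes with high and low ratios, in all NK cells, in the set without mixed droplets and in female and male cells alone; dashed lines mark 1.5-fold, and a setting that left under 20 UMIs has no point. Klf2, Sult2b1, Ndufs5 and Cep85 lie below 0 and Dhrs3, Egr1 and Ly6a above 0 in each setting shown.

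Over all NK cells, few genes of the metabolic and interferon lists passed 1.5-fold. Of 14 glycolysis genes 0 were 1.5-fold higher or lower, with a median of -0.04 and a range of -0.17 to 0.48. Of 56 oxidative phosphorylation genes 1 was lower, Ndufs5, and 0 were higher, with a median of -0.02. Fructose handling could be followed only in part, since Slc2a5, Slc2a2 and Slc2a7 had no UMI in NK cells and Khk, the ketohexokinase that commits fructose to metabolism, had 21 and 22 UMIs. Of the 5 genes of that list with enough UMIs 1 was higher, Hk3, the hexokinase of myeloid cells, on 22 and 50 UMIs (0.82). Of 32 type I interferon response genes 0 were higher and 1 was lower, Ifi208 (-0.73), and of 26 interferon-gamma response genes 0 were called. The type I count moved with the cells taken. In male cells 9 of 30 were higher and 0 lower, with a median of 0.49, where 6.8% and 4.83% of all genes were. Without the barcodes rich in MHC class II 1 of 31 was higher and 7 were lower, where 4.93% and 3.92% of all genes were. In male cells of the set without mixed droplets 1 of 14 was higher and 1 lower, where 6.68% and 5.24% of all genes were. Of 15 hypoxia genes 2 were higher, Hilpda and the oxygen sensor Egln1 (0.73), and 1 was lower, the mitophagy receptor Bnip3 (-0.59, and 0.22 in male cells). Of 27 cell cycle genes 1 was higher, Ube2c, and 1 lower, the thymidylate synthase Tyms (-0.64, and 0.82 in female cells).

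The cell cycle list went opposite ways in the sexes. In female cells 19 of 21 genes were higher and 0 lower, with a median of 1.08, where 14% of all genes were higher and 8.27% lower. In male cells 2 of 19 were higher and 9 lower, with a median of -0.26, where 6.8% of all genes were higher and 4.83% lower. Without mixed droplets 16 of 19 were higher and 0 lower in female cells (median 1.001), where 13.9% of all genes were higher and 9.75% lower. In male cells of that set 4 of 12 were lower (median -0.43), where 5.24% of all genes were. These sums rest on few cells: after thinning, a UMI of Mki67, Top2a, Cdk1, Ccna2 or Birc5 was seen in 2 of 39 and 8 of 108 female NK cells and in 4 of 103 and 6 of 68 male NK cells. That share was higher in the Glut5 KO library in both sexes. Whether the sexes differ was not tested.

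Immediate-early genes can be induced during tissue digestion. Of 30 such genes 1 was higher, Egr1, and 1 lower, Ier3 (-1.35), with a median of 0.01. Once mixed droplets were left out, 5 of 28 were higher and 0 lower, with a median of 0.08, where 5.07% and 3.32% of all genes were. Within that set 8 of 24 were higher in female cells (median 0.20), where 13.9% of all genes were, and 10 of 27 in male cells (median 0.43), where 6.68% of all genes were. Ier3 was at 0.05 once the 2 barcodes with mast cell proteases were left out, and at 1.21 in female cells. Fos stood at 510 and 409 CPM and Jun at 331 and 251 CPM, while Nr4a1, a reporter of antigen or activating receptor signals, stood at 717 and 902 CPM (0.33 [0.23 to 0.44]). Nr4a1 had a UMI in 35.3% and 48.3% of thinned NK cells, and in 36.8% and 36.0% of phagocytes. Fos had a UMI in 18.1% and 19.4% of thinned NK cells. In female ones the share was 7.69% and 22.2%, and in male ones 19.4% and 32.4%. Without mixed droplets the thinned Fos share was 13.7% and 11.8%, and over all NK cells without thinning it was 46.3% and 43.3%. The direction of the Fos share therefore moved with the cells and depth taken. In thinned phagocytes the Fos share was 63.3% and 66.9%.

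A minority of NK cells held nearly all of the Gzmc. In the set without mixed droplets, cells with at least 2 Gzmc UMIs and at least 10 per 10000 were taken as Gzmc-high; the limit was chosen after the values were seen, and 9 and 23 further cells held 1 UMI. They were 32 of 266 wildtype cells, or 12.03% [8.38 to 16.6], and 60 of 296 Glut5 KO cells, or 20.3% [15.8 to 25.3], a ratio of 1.68 [1.08 to 2.67]. They held 99.2% and 98.9% of the Gzmc UMIs, with medians of 69.5 and 58.5 Gzmc UMIs per cell. They were also the deep cells, with medians of 9439 and 9548.5 UMIs against 2952 and 3301 in the rest. Cells with at least 5000 UMIs were 19.2% of the wildtype and 31.8% of the Glut5 KO set, a ratio of 1.66 [1.17 to 2.38]. Among those deep cells the Gzmc-high share was 56.9% and 54.3%, a ratio of 0.954 [0.593 to 1.56]. Among cells under 5000 UMIs it was 1.395% and 4.46% (3 of 215 and 9 of 202), a ratio of 3.19 [0.797 to 18.3]. Gzmc-high cells were 29 of the 51 and 51 of the 94 deep cells, so depth and the class overlap, and the part of depth in the ratio was not tested. Within sexes the ratio was 2.14 [0.743 to 8.45] in female and 1.22 [0.562 to 2.60] in male cells.

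Gzmc-high cells were set against the other NK cells within each library. Of 3281 genes, 22 (0.671%) were at least 2-fold higher in them in both libraries and 133 (4.05%) at least 2-fold lower; these are a description, since a transcript chose the cells. Gzmf and Gzmd, the neighbours of Gzmc whose upstream bases are shown above, were almost confined to them: Gzmf had 385 and 175 UMIs there and 1 and 0 in the rest, and Gzmd 81 and 55 against 0 and 0. Most of those UMIs came from few cells, with 96.6% and 93.7% of Gzmf in 2 cells. The antiviral genes Ifitm1 (1029 and 475 CPM against 3.95 and 6.13) and Ifitm2 (900 and 337 CPM against 63.2 and 17.4) were higher. So were Ctla4 (152 and 189 CPM against 21.1 and 33.7), Ly6a, Thy1, Jaml and Igflr1, the matrix and adhesion cytokine Spp1 (795 and 651 CPM against 54.0 and 148), the calcium-binding S100a4 and S100a6, the actin-capping Capg, Ifitm3 and Agpat5. Ifitm1 and Ifitm2 were not seen in most Gzmc-high cells. After thinning, Ifitm1 had a UMI in 21.9% and 6.67% of them, against 0.870% and 0.881% of the rest. For Ifitm2 the shares were 43.75% and 16.7% against 4.35% and 0.441%. In the set without mixed droplets, 29.2% and 44.5% of the Ifitm2 UMIs lay in 2 cells of each library.

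Ccl5, Gzma and Klf2 were low in Gzmc-high cells. Ccl5 stood at 102 and 101 CPM there and at 8561 and 6077 CPM in the rest, and after thinning it had a UMI in 12.5% and 6.67% of Gzmc-high cells against 83.9% and 70.5% of the rest. Gzma stood at 804 and 1475 CPM against 7959 and 6311 CPM, with thinned shares of 31.2% and 33.3% against 84.8% and 74.0%. Klf2 stood at 90.6 and 49.7 CPM against 796 and 364 CPM. The chemokine receptor Cxcr4, the maturation factor Zeb2, the adhesion receptor Adgre5, the cytokine receptor Il18r1, Ccl4 and Serpinb9b were lower too. Gzmb had a UMI in 75% and 80% of thinned Gzmc-high cells against 58.3% and 61.2%. Eomes stood at 78.9 and 177 CPM in Gzmc-high cells against 351 and 255 CPM, and Klra4 at 263 and 289 CPM against 598 and 566 CPM. The ILC1 marker Itga1 stood at 140 and 173 CPM against 39.5 and 46.0 CPM. Of 7 ILC1 and tissue residence genes 1 was higher and 0 lower, with medians of -0.05 and -0.24. The part of ILC1 in the Gzmc-high class was not tested. Of 22 type I interferon response genes 6 were lower and 0 higher. The cell cycle list had a median log2 ratio of 2.20 in the wildtype library and -0.29 in the Glut5 KO library, so division genes did not mark these cells in both.

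**Figure D5:**
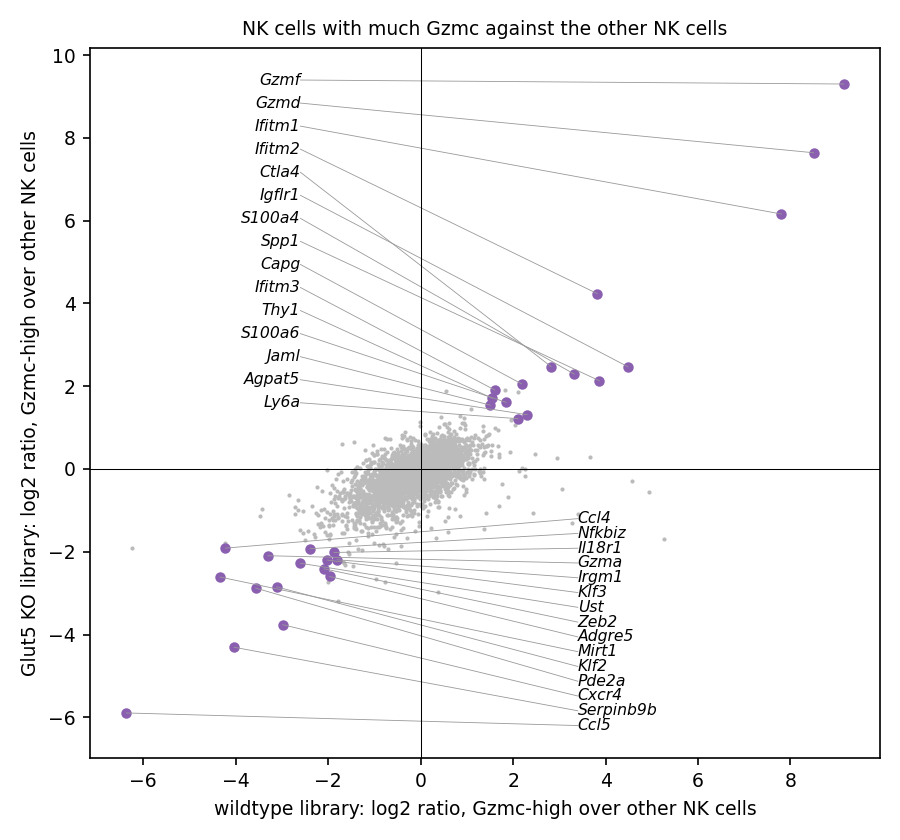
Log2 ratio of Gzmc-high over other NK cells in the wildtype library (horizontal) and in the Glut5 KO library (vertical), 1 point per gene; purple points are the genes with the largest difference by the smaller of the 2 libraries. Gzmf, Gzmd and Ifitm1 lie at the upper right and Ccl5 at the lower left.

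Several differences between genotypes were present within the NK cells that were not Gzmc-high. There Klf2 was lower (-1.13 [-1.32 to -0.94]), S1pr1 was lower on 45 and 11 UMIs (-2.35), and Ccl5 was lower (-0.49 [-0.54 to -0.44]). Ly6a (1.92 [1.59 to 2.29]), Dhrs3 (1.18) and Xcl1 (0.65 [0.53 to 0.78]) were higher. Gzma was lower in these cells (-0.33 [-0.39 to -0.28]) but higher within Gzmc-high cells (0.87 [0.68 to 1.08]), where it stood at 804 and 1475 CPM. Eomes split in the same way, at -0.46 [-0.71 to -0.21] in the rest and 1.14 [0.53 to 1.84] in Gzmc-high cells, as did the Ly49 gene Klra8, at -0.27 and 1.96. Prf1 was at 0.06 [-0.13 to 0.26] in the rest and at 0.65 [0.35 to 0.96] in Gzmc-high cells. Egr1 was at 1.06 [0.58 to 1.58] in the rest and at 2.45 [1.53 to 3.70] in Gzmc-high cells. After thinning, an Egr1 UMI was seen in 6.09% and 6.17% of the rest and in 3.125% and 11.7% of Gzmc-high cells. Thinned Gzmc-high cells numbered only 32 and 60. A Gzma UMI was seen in 31.2% and 33.3% of them, so that share hardly differed although the summed level did. An Eomes UMI was seen in 0% and 10% of them, and a Klra8 UMI in 3.125% and 10%. In the rest the shares were 84.8% and 74.0% for Gzma, 26.5% and 22.9% for Eomes, and 22.2% and 25.1% for Klra8. Whether the ratios between genotypes differ between the 2 kinds of cell was not tested.

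Ligands and cytokines that act on NK cells were followed in the other barcodes, a pool of all other cell types. Cell type markers in this pool differed between the libraries. Jchain stood at 20.8 and 839 CPM, Cd79a at 6.65 and 72.3 CPM, Cd3e at 37.8 and 74.4 CPM and C1qa at 6079 and 5150 CPM. The part of the cell mix in the ratios was not tested. Of 19 receptor ligands 1 was higher and 1 lower, and of 22 cytokines and chemokines 5 were higher and 2 lower, against 8.33% and 5.5% of all genes. H60b, a ligand of NKG2D, had 11 and 331 UMIs (5.12), while Raet1d, another one, had 371 and 61 UMIs (-2.32). In NK cells H60b had 0 and 28 UMIs. Il15, the survival cytokine of NK cells, stood at 20.4 and 31.2 CPM (0.61), and Il21, a cytokine of helper T cells, had 17 and 72 UMIs (2.32). H2-T23, which encodes Qa-1, the ligand of NKG2A, stood at 575 and 839 CPM (0.54). Cd274, which encodes PD-L1, stood at 126 and 175 CPM (0.47). Within NK barcodes Il15 was lower, on 39 and 18 UMIs (-1.44 [-2.35 to -0.62]).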

How the data were processed

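Both samples were 10x Genomics 5′ single-cell RNA libraries of CD45+ cells. The deposited values are raw UMI counts per gene and barcode; per the submitters' processing notes the authors used the mm10 build and version 3.1.0 of Cell Ranger, and per the file headers version 7.0.1. Intron counting, the strand setting and barcode filter were not given in the sources used here. No doublet removal is stated; doublets were scored with Scrublet (scanpy 1.11.5, expected rate 8%). NK and CD8 T cells were chosen by UMI thresholds, their counts summed per library and scaled to CPM, and log2 ratios formed with 0.5 added to each count for genes with at least 50 UMIs. A gene counted as different at 1.5-fold between genotypes and at 2-fold in both libraries between cell types. Intervals are Clopper-Pearson or conditional binomial (scipy 1.17.1), and they do not cover variation between animals. CD8 T cells needed at least 2 CD3 and 2 Cd8a or Cd8b1 UMIs and no Cd4. They also needed at most 1 UMI over Ncr1, Klrb1c and Klre1, no Cd79a and the same limit on phagocyte genes. Phagocytes needed at least 50 C1q UMIs per 10000 and no CD3 UMI. Sex was read from Xist and Y-linked UMIs. Gene positions are from GENCODE, which matched 32158 of 32285 IDs. The ratio script was tested on simulated data.

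The genes named are the given markers and Slc2a5, the 12 highest and 12 lowest ratios between genotypes and between cell types (at least 100 UMIs and 50 CPM; mitochondrial, ribosomal, sex-linked and predicted genes, markers of other classes and genes under 0.2 times the level in other barcodes left out), and the ends of 22 lists of 469 genes. The Gzmc-high class, and genes named beyond this rule, were chosen after their values were seen. A few genes that this rule covers are not reported here. Members and lists were chosen with earlier results of these data known.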

Additional observations from a re-analysis of the deposited data

Results flagged for a closer look

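The NK share differed between genotypes in opposite directions in the 2 sexes. The ratio of Glut5 KO over wildtype was 2.35 in female cells (39 of 2891 and 110 of 3473 barcodes) and 0.895 in male cells (104 of 3620 and 68 of 2646 barcodes). The difference between the sexes was not tested, because each sex is represented by an unknown number of animals in 1 library per genotype. The interval of the male ratio, 0.649 to 1.23, spans 1.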

How the results depend on the processing

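No paired analysis was possible because each genotype had 1 library. The ratio of NK shares (1.08) stayed within its interval under other NK, CD3, myeloid, doublet and depth limits (1.22 at 2000 UMIs per barcode, with an interval of 1.04 to 1.45), and was 2.35 in female and 0.895 in male cells, 2.53 and 0.872 in those sexes without mixed droplets, and 0.900 for NK cells with no Gzmc UMI. The 338 genes higher in the Glut5 KO library became 149 in male cells without mixed droplets, 696 at a minimum of 20 UMIs, 126 at 100 UMIs, 217 with 5 counts added, 592 with cells weighted equally and 59 at 2-fold. The 243 lower genes became 117, 587, 102 and 54 in male cells without mixed droplets, at 20 UMIs, at 100 UMIs and at 2-fold. List medians at least 0.2 above that of all genes numbered 1. They numbered 2 with at least 3 NK marker UMIs, without top doublet scores, without mixed droplets, at 2000 UMIs per barcode, with no Gzmc UMI and at a minimum of 20 UMIs. They numbered 3 in male cells and with little MHC class II, and 4 in female cells and in male cells without mixed droplets. Medians 0.2 below numbered 1, and 2 in male cells, 6 and 3 in female and male cells without mixed droplets, and 0 without mixed droplets or with cells weighted equally. Against CD8 T cells, 146 higher and 118 lower genes became 26 and 21 in female cells and 61 and 49 in male cells, and the lower ones 60 at 100 UMIs. Signs turned in male cells for Bnip3 (0.22), Ccr7 (0.19), Crtam (-0.81), Ctla4 (-0.44), Il12rb1 (-0.50) and Tnfsf10 (-0.0552), and in those without mixed droplets for Crtam (-0.60), Ctla4 (-0.49), the gene Il12rb1 (-0.999), Tnfsf10 (-0.30) and Ube2c (-0.71). They turned in female cells for Ccr7 (0.0292), Ier3 (1.21) and Tyms (0.82), and in those without mixed droplets for the gene Agtrap (0.000979), Rora (-0.28), Stat5a (-0.63) and Tyms (0.72). Ube2c turned with at least 3 NK marker UMIs (-0.15), with little MHC class II (-0.19) and without mixed droplets (-0.24), Cd300a without top doublet scores (-0.45), the gene Ier3 without mast cell protease droplets (0.0455) and Tyms with no Gzmc UMI (0.0301). The Gzmc-high ratio turned to 0.954 in cells of at least 5000 UMIs and was 3.19 under 5000. The cause was not tested, beyond the fewer cells or other limits of each setting. Settings that left a gene under 20 UMIs gave no value. The settings on MHC class II, mast cell proteases, mixed droplets, 2000 UMIs and Gzmc were chosen after seeing the data. With 313 and 358 cells, a gene at 50 UMIs has wide counting error, and variation between animals is unknown.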
